A study of Mus musculus with 6 samples.

Results

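Notch1, Notch2, Jag1, Hes1 and Hey1 cover the receptors, a ligand and the transcriptional targets of the Notch pathway, and they are described here across the 6 libraries of sorted olfactory horizontal basal cells. They were taken by name, as 5 of the 8078 entries of the deposited table, and all 5 passed the filter on low values. Cells came from 12-week-old mice on a B6 background that carry KRT5-CreER, a Cre recombinase made under the keratin 5 promoter and active only with tamoxifen, and the Ai9 reporter fl(Stop)TdTomato; tamoxifen given 2 weeks before sorting marked the cells with TdTomato, a red fluorescent protein. The injured group held 3 libraries of TdTomato-positive cells taken 18 h after the mice had breathed methyl bromide at 180 ppm for 8 h, a gas that destroys most of the olfactory epithelium. The uninjured group held 3 libraries of such cells from undisturbed epithelium. All 6 libraries carried the same transgenes and the same tamoxifen treatment, each pooled cells of several animals, and the label is inherited by any descendants of a marked cell.

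Notch receptors are membrane proteins that are cut when a ligand such as Jagged1 on a neighbouring cell binds them. The freed intracellular part enters the nucleus, joins the DNA-binding protein RBPJ and switches on genes of the Hes and Hey families, which are themselves transcriptional repressors. In the mouse olfactory epithelium Notch1 is known for holding horizontal basal cells, the reserve stem cells of the tissue, in dormancy together with the transcription factor p63 (Trp63), and Notch2 is known from the supporting, or sustentacular, cells.

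The windows around the gene starts of the receptors and the ligand are shown to let the starts of these 3 genes be compared. The windows, from RefSeq (GRCm38.p6), run over 250 bases before to 50 bases after the start and were matched for 3 of the 5 genes; those of Hes1 and Hey1 were not used here. Notch1 lies on the minus strand at chr2:26503773-26504072, Notch2 on the plus strand at chr3:98013288-98013587 and Jag1 on the minus strand at chr2:137116471-137116770, in a build that differs from the mm9 named for the deposited values. Capitals mark the GC box GGGCGG, a motif of the Sp1 family, read on either strand.
Notch1: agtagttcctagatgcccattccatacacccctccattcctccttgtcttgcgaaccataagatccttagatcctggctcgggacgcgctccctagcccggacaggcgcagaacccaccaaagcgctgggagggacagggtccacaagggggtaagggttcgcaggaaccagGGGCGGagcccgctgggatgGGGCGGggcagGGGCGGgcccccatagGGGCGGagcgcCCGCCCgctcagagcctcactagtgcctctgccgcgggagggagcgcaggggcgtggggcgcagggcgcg
Notch2: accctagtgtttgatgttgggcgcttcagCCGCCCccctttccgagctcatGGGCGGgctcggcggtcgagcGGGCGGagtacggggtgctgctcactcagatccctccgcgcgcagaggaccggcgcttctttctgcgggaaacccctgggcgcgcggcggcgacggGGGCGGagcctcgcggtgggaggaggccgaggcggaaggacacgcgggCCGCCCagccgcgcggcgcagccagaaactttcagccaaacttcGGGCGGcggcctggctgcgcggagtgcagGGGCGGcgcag
Jag1: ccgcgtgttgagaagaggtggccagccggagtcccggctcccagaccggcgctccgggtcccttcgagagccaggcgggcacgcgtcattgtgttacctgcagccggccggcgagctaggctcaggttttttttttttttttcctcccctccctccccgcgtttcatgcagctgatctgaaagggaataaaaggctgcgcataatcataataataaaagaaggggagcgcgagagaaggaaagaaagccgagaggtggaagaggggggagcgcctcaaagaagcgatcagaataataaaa
The Notch1 window held 5 GC boxes, the Notch2 window 7 and the Jag1 window 0, where 35.7% of all 32851 windows of this length held at least 1 and 10.7% held 3 or more. GC content was 68.3% in the Notch1 window, 73.0% in the Notch2 window and 55.7% in the Jag1 window, against a median of 52.7% over all windows. The RBPJ core TGGGAA, searched on both strands, was in none of the 3 windows and in 25.6% of all windows. Of the sequences that Hes repressors bind, the N-box CACNAG was found 3 times in the Notch1 window, a pair of them overlapping each other at the gene start, and 1 time in the Notch2 window, and 42.5% of all windows held it. The class C site CACGNG was found 1 time in the Notch2 window and 2 times in the Jag1 window, and 27.5% of all windows held it. Apart from the overlapping pair of N-boxes, no match overlapped another.

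Expression is given in FPKM, fragment counts scaled to transcript length and library size, so genes can be compared per length. Read depth was unknown, and summed FPKM lay between 164265 and 231755 per library. Among injured libraries, replicate 2 stood apart, with a correlation of log2 values across genes of 0.730 with replicate 1 and 0.749 with replicate 3, where replicates 1 and 3 reached 0.847 and the uninjured libraries 0.885 to 0.905, and 0.826 was its highest with an uninjured library. The RNA Mir703 alone took 8.01% to 18.6% of the summed FPKM in injured and 22.0% to 25.4% in uninjured libraries. Xist, the RNA of the inactive X chromosome, was at 0.0645 to 0.561 FPKM in injured libraries and at 27.0 to 33.8 FPKM in uninjured ones. The Y-linked gene Eif2s3y was at 21.1 to 29.3 FPKM in injured libraries and at 18.8, 2.73 and 2.55 FPKM in uninjured replicates 1 to 3. Injury and the sex of the pooled animals therefore cannot be told apart in any comparison below. Of 7 horizontal basal cell markers 6 had an entry of their own, with a summed level of 169 to 357 FPKM in injured and 257 to 292 FPKM in uninjured libraries, lowest in injured replicate 2, and Trp63 was the most abundant of them. Genes of other cell types were also present, among them the glandular secretory protein Plunc at 1182 to 2290 FPKM in injured and 3023 to 4978 FPKM in uninjured libraries. Reg3g, another marker of glands and respiratory epithelium, had a higher injured mean. It was at 799 to 4322 FPKM in injured and 1294 to 1725 FPKM in uninjured libraries. In such bulk samples, fewer cells of a type and less RNA per cell cannot be told apart.

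Against that background, the Notch targets stood lower in every injured library than in any uninjured one, while the receptors and Jag1 did so in only some injured libraries. None of the 5 genes passed the test over all genes tested. All 5 had a negative log2 change, as did 37.1% of all genes tested, where 62.9% had a positive one. Their levels fell into 3 tiers, with the targets Hey1 and Hes1 far above the receptors, and Jag1 lowest in every library. In the plot of the 5 genes by library, this separation is visible for Hes1 and Hey1 and absent for the other 3.

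**Figure D1:**
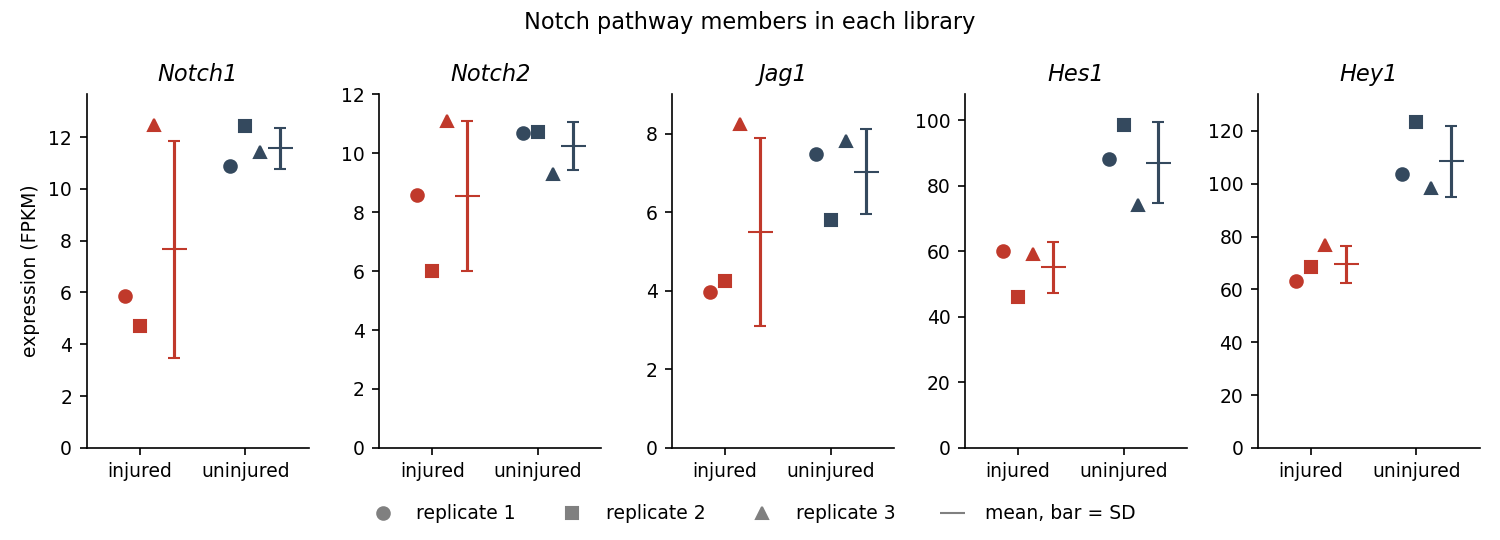
FPKM of Notch1, Notch2, Jag1, Hes1 and Hey1 in each library, with 3 injured libraries left and 3 uninjured ones right in each panel, points by replicate, and the mean with its SD beside them; each vertical axis starts at 0. The injured points lie below all uninjured points for Hes1 and Hey1, while injured replicate 3 lies among or above the uninjured points for Notch1, Notch2 and Jag1.

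Notch1, the receptor tied to dormancy, had 5.85, 4.69 and 12.5 FPKM in injured replicates 1 to 3, against 10.9, 12.4 and 11.4 FPKM in uninjured replicates 1 to 3. Injured replicates 1 and 2 thus lay below every uninjured library, and injured replicate 3 lay just above all of them. The mean was 7.67 ± 4.19 FPKM in injured and 11.6 ± 0.797 FPKM in uninjured libraries (SD, n = 3 each), and the log2 change, which here always means the injured mean less the uninjured mean of log2(FPKM + 1), was -0.64 (SE 0.337, 95% interval -1.39 to 0.11, limma adjusted p = 0.503). On the log2 scale its SD was 0.654 among injured and 0.0908 among uninjured libraries, where the medians over all genes tested were 0.459 and 0.253. Without injured replicate 3 the Notch1 change was -1.01 (limma adjusted p = 0.348), and without injured replicate 2 it was -0.39 (limma adjusted p = 0.468).

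Notch2, the second receptor, had 8.58, 6.002 and 11.1 FPKM in injured replicates 1 to 3, against 10.7, 10.7 and 9.30 FPKM in uninjured replicates 1 to 3. The groups overlapped, with injured replicate 3 the highest of all 6 libraries. The mean was 8.55 ± 2.54 FPKM in injured and 10.2 ± 0.812 FPKM in uninjured libraries (SD, n = 3 each), a log2 change of -0.27 (SE 0.278, limma adjusted p = 0.728). Leaving out injured replicate 2 brought the Notch2 change to -0.06 and leaving out injured replicate 3 brought it to -0.45.

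Jag1, a ligand presented by neighbouring cells, had 3.98, 4.25 and 8.25 FPKM in injured replicates 1 to 3, against 7.47, 5.80 and 7.81 FPKM in uninjured replicates 1 to 3. Its pattern was that of Notch1, with injured replicates 1 and 2 below every uninjured library and injured replicate 3 above all of them. The mean was 5.49 ± 2.39 FPKM in injured and 7.03 ± 1.07 FPKM in uninjured libraries (SD, n = 3 each), a log2 change of -0.36 (SE 0.322, limma adjusted p = 0.680). The Jag1 change was -0.64 without injured replicate 3, -0.23 without injured replicate 2 and -0.19 without injured replicate 1.

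Hes1, a repressor that keeps proneural genes off, had 60.0, 46.0 and 59.2 FPKM in injured replicates 1 to 3, against 88.3, 98.6 and 74.1 FPKM in uninjured replicates 1 to 3. The groups did not overlap, and the injured mean was 63.3% of the uninjured one. The log2 change was -0.65 (SE 0.280, 95% interval -1.27 to -0.03), with an unadjusted p of 0.0423 and a limma adjusted p of 0.425 over the 7856 genes tested.

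Hey1, the related repressor, had 63.0, 68.4 and 76.8 FPKM in injured replicates 1 to 3, against 104, 123 and 98.3 FPKM in uninjured replicates 1 to 3. The groups did not overlap, and the injured mean was 64.0% of the uninjured one. The log2 change was -0.63 (SE 0.279, 95% interval -1.25 to -0.01), with an unadjusted p of 0.0463 and a limma adjusted p of 0.441. Non-overlapping groups with the injured libraries lower were found for 6.75% of all genes tested, and an unadjusted p under 0.05 in that direction for 4% of them. The adjusted p was under 0.05 for 0.0127% of genes, which was 1 gene, Xist, and it lay on the lower side; on the higher side it was 0%. At an unadjusted p under 0.05 there were 558 genes higher (7.1%) and 314 lower, and 325 higher and 571 lower after upper-quartile scaling.

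The 2 targets and the 3 other members thus differed in how evenly the injured libraries sat below the uninjured mean. For Hes1 the injured replicates 1 to 3 lay at 68.9%, 52.9% and 68.0% of the uninjured mean in FPKM, and for Hey1 at 58.1%, 63.1% and 70.8%. For Notch1 the same libraries lay at 50.6%, 40.5% and 108%, for Notch2 at 83.8%, 58.6% and 108%, and for Jag1 at 56.6%, 60.5% and 117%. Injured replicate 3 also had the highest summed FPKM of all libraries, and its part in these values depends on scaling, as given next.

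**Figure D2:**
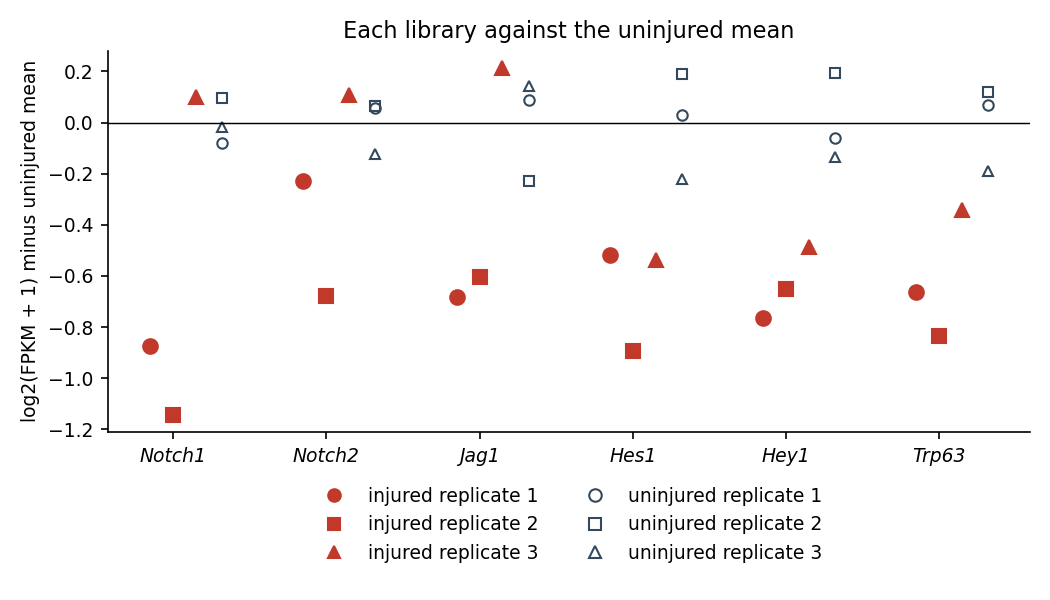
Difference of each library from the uninjured mean, in log2(FPKM + 1), for the 5 genes and Trp63; filled points are injured and open points uninjured libraries, with the shape giving the replicate. All 3 injured points lie below the open points for Hes1, Hey1 and Trp63, and injured replicate 3 lies above 0 for Notch1, Notch2 and Jag1.

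All 5 members lay further below 0 when libraries were scaled in other ways. The median log2 change of all genes tested was 0.15, and it was -0.01 after scaling to the upper quartile and 0.01 after quantile normalization, so that each member lay further below the bulk of genes than its own change shows. After upper-quartile scaling Notch1 was at 5.37, 4.86 and 10.9 in injured and 12.0, 13.2 and 12.0 scaled FPKM in uninjured replicates 1 to 3, and its groups no longer overlapped. Notch2 was then at 7.87, 6.22 and 9.68 in injured and 11.8, 11.4 and 9.74 scaled FPKM in uninjured libraries, separated by a margin smaller than the spread of either group. Jag1 still overlapped, with 7.21 scaled FPKM in injured replicate 3 against 6.15 in uninjured replicate 2. The log2 changes under that scaling were -0.84 for Hes1, -0.82 for Hey1, -0.81 for Notch1, -0.52 for Jag1 and -0.44 for Notch2, with limma adjusted p values of 0.243, 0.258, 0.364, 0.556 and 0.542 in that order.

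By level, Hey1 stood above Hes1 in all 6 libraries, and both were among the more abundant genes of the table. The Hey1 mean lay at percentile 95.7 of all genes tested in injured and 97.8 in uninjured libraries, and the Hes1 mean at 94.1 and 97.0 in the same order of groups. Notch1 lay at percentile 41.7 in injured and 64.7 in uninjured libraries, Notch2 at 46.9 and 60.4, and Jag1 at 27.8 and 44.2. Among uninjured libraries Notch1 was above Notch2 in each, though their ranges were separated by little (10.9 to 12.4 and 9.30 to 10.7 FPKM). In injured libraries the order of the receptors was Notch2 above Notch1 in replicates 1 and 2 and Notch1 above Notch2 in replicate 3.

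Ratios within a library do not depend on how libraries were scaled, and 14 of them were compared over libraries by exact two-sided permutation tests, which with 3 against 3 libraries cannot go below p = 0.1. The Notch2 to Notch1 ratio of FPKM was 1.47, 1.28 and 0.889 in injured replicates 1 to 3, against 0.983, 0.863 and 0.815 in uninjured ones. Injured replicate 3 lay within the uninjured range, and the difference of 0.42 on the log2 scale gave an adjusted exact permutation p of 0.4. The Hey1 to Hes1 ratio was 1.05, 1.49 and 1.30 in injured and 1.17, 1.25 and 1.33 in uninjured replicates 1 to 3, a log2 difference of 0.02 that was smaller than the SD of 0.252 among injured libraries (adjusted exact permutation p = 0.969). The Hes1 to Notch1 ratio, target over receptor, was 10.2, 9.81 and 4.75 in injured and 8.13, 7.93 and 6.49 in uninjured replicates 1 to 3. Its mean log2 difference of 0.06 hid a wide spread, since injured replicates 1 and 2 lay above and injured replicate 3 below all uninjured libraries. The Jag1 to Notch1 ratio was 0.679, 0.908 and 0.662 in injured and 0.688, 0.467 and 0.684 in uninjured replicates 1 to 3, and the groups overlapped.

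**Figure D3:**
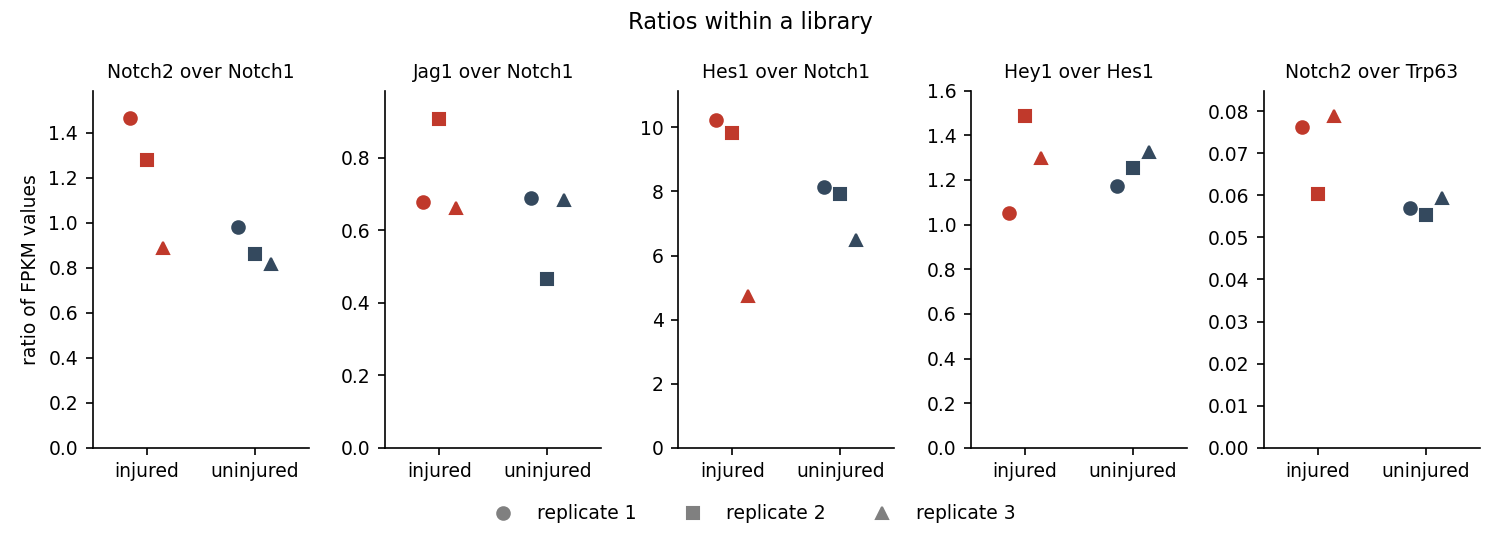
Ratios of FPKM within each library, injured left and uninjured right in each panel, with points by replicate and axes that start at 0. The Hey1 to Hes1 ratio stays between 1.05 and 1.49, the Hes1 to Notch1 ratio runs between 4.75 and 10.2 among injured libraries, and the Notch2 to Trp63 ratio is higher in the 3 injured libraries.

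Trp63, which encodes p63, the transcription factor that holds these cells dormant, was itself at 112, 99.5 and 140 FPKM in injured replicates 1 to 3, against 187, 194 and 157 FPKM in uninjured replicates 1 to 3, and its groups did not overlap (log2 change -0.61, limma adjusted p = 0.488). Set against Trp63, the Hes1 ratio was 0.533, 0.462 and 0.422 in injured and 0.472, 0.509 and 0.473 in uninjured replicates 1 to 3, a log2 difference of -0.04 with SDs of 0.171 and 0.0627. The Hey1 to Trp63 ratio was 0.561, 0.687 and 0.547 in injured and 0.553, 0.637 and 0.628 in uninjured replicates 1 to 3, a log2 difference of -0.02. Levels of the targets thus differed between groups about as much as that of Trp63 did. Among members only Notch2 was separated on this measure, with a Notch2 to Trp63 ratio of 0.0763, 0.0603 and 0.0789 in injured and 0.0570, 0.0554 and 0.0594 in uninjured replicates 1 to 3 (log2 difference 0.32, exact permutation p = 0.1, the smallest possible, and 0.35 adjusted over the 14 ratios). Against the geometric mean of the 6 basal cell markers, the log2 difference was -1.07 for Hes1, -1.05 for Hey1, -1.13 for Notch1, -0.71 for Notch2 and -0.83 for Jag1, and the groups overlapped for Hey1 and Jag1. The exact permutation p was 0.1 for Hes1, Notch1 and Notch2 and 0.2 for Hey1 and Jag1, or 0.35 and 0.4 after adjustment over the 14 ratios. Without injured replicate 1 the difference for Jag1 was -0.50. That marker mean was itself uneven, since Cav1 was at 24.0, 4.56 and 21.5 FPKM in injured and 4.42, 3.48 and 5.41 FPKM in uninjured replicates 1 to 3. Itga6, Itgb4 and Icam1 also had positive log2 changes (0.79, 0.34 and 0.32), with overlapping groups. Trp63 and Egfr had negative ones (-0.61 and -0.02), and the median over the 6 markers was 0.33. The differences from the marker mean therefore include the changes of the markers themselves.

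Markers of cells other than basal cells were also measured, and none passed the test. Over all genes tested, 6.75% were lower and 12% higher in injured libraries without overlap, beside which the counts below stand. Sustentacular cells are known to use Notch2 and Hes1, and 8 of 11 markers of these cells had an entry. Their summed level was 875, 331 and 734 FPKM in injured replicates 1 to 3 and 679, 1384 and 1358 FPKM in uninjured ones, with 3 markers (Cyp1a2, Muc2 and Gpx6) lower without overlap and 0 higher, and none listed at the lowest value of the table. Krt18, a keratin of the same list, had a higher injured mean, at 390, 119 and 558 FPKM in injured and 133, 160 and 173 FPKM in uninjured replicates 1 to 3, with overlapping groups. The 6 olfactory neuron markers with an entry summed to 142, 437 and 122 FPKM in injured and 420, 555 and 735 FPKM in uninjured libraries, with 3 (Adcy3, Ano2 and Stoml3) lower without overlap. Cnga2, Gng13 and Gap43 overlapped. Gap43 had a higher injured mean, at 39.4 against 10.0 FPKM, which rested on injured replicate 2. The 3 markers of glands and respiratory epithelium with an entry summed to 6550, 1988 and 4424 FPKM in injured and 5980, 6321 and 4337 FPKM in uninjured libraries. Of these, Plunc was lower without overlap, while Foxj1 had a lower and Reg3g a higher injured mean, both with overlapping groups. The 5 globose basal cell markers with an entry summed to 19.4, 47.3 and 24.5 FPKM in injured and 16.0, 15.4 and 15.0 FPKM in uninjured libraries, with 3 (Ezh2, Lgr5 and Neurod1) higher without overlap. The 3 fibroblast markers with an entry summed to 32.8 to 101 FPKM in injured and 126 to 220 FPKM in uninjured libraries, the 2 of pericytes to 129 to 164 and 65.6 to 102 FPKM, and the 4 of immune cells to 9.03 to 25.2 and 6.57 to 18.2 FPKM, with the groups in the same order. The fibroblast sum was carried by Dcn, which averaged 35.1 FPKM in injured and 141 FPKM in uninjured libraries, while Col1a1 and Col1a2 had log2 changes of 0.33 and 0.39 with overlapping groups. The pericyte sum was carried by Rgs5, at 106, 129 and 106 FPKM in injured and 81.2, 84.7 and 46.5 FPKM in uninjured replicates 1 to 3. Acta2 overlapped, at 23.8, 4.68 and 58.1 FPKM in injured and 21.0, 6.08 and 19.1 FPKM in uninjured replicates 1 to 3. Of ensheathing glia only Ngfr had an entry, at 4.46 to 20.5 FPKM in injured and 6.03 to 6.99 FPKM in uninjured libraries, and markers of endothelial cells, which also use Notch1 and Hey1, were not analysed here. The part of these cells in the levels of Hes1, Hey1 and the receptors was not tested.

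Other genes of the pathway, taken from 7 lists by role with 60 symbols, had entries for 33, all tested, and none passed. At an unadjusted p under 0.05, 0 were higher and 3 lower, the members Hes1 and Hey1 and the ligand-like Dlk2. Over all genes tested, 7.1% were higher and 4% lower at that threshold. Among the 28 genes that are not members, 0 were higher and 1 lower. The median log2 change was 0.01 over the 33 and 0.03 over the 28 that are not among the 5 genes, against 0.15 over all genes tested, and that of the 33 was -0.17 to -0.12 under the other scalings. Groups did not overlap for 3 lower genes (Dlk2, Hes1 and Hey1) and 1 higher gene (Numbl) of the 33, where 6.75% and 12% of all genes did so in those directions.

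**Figure D4:**
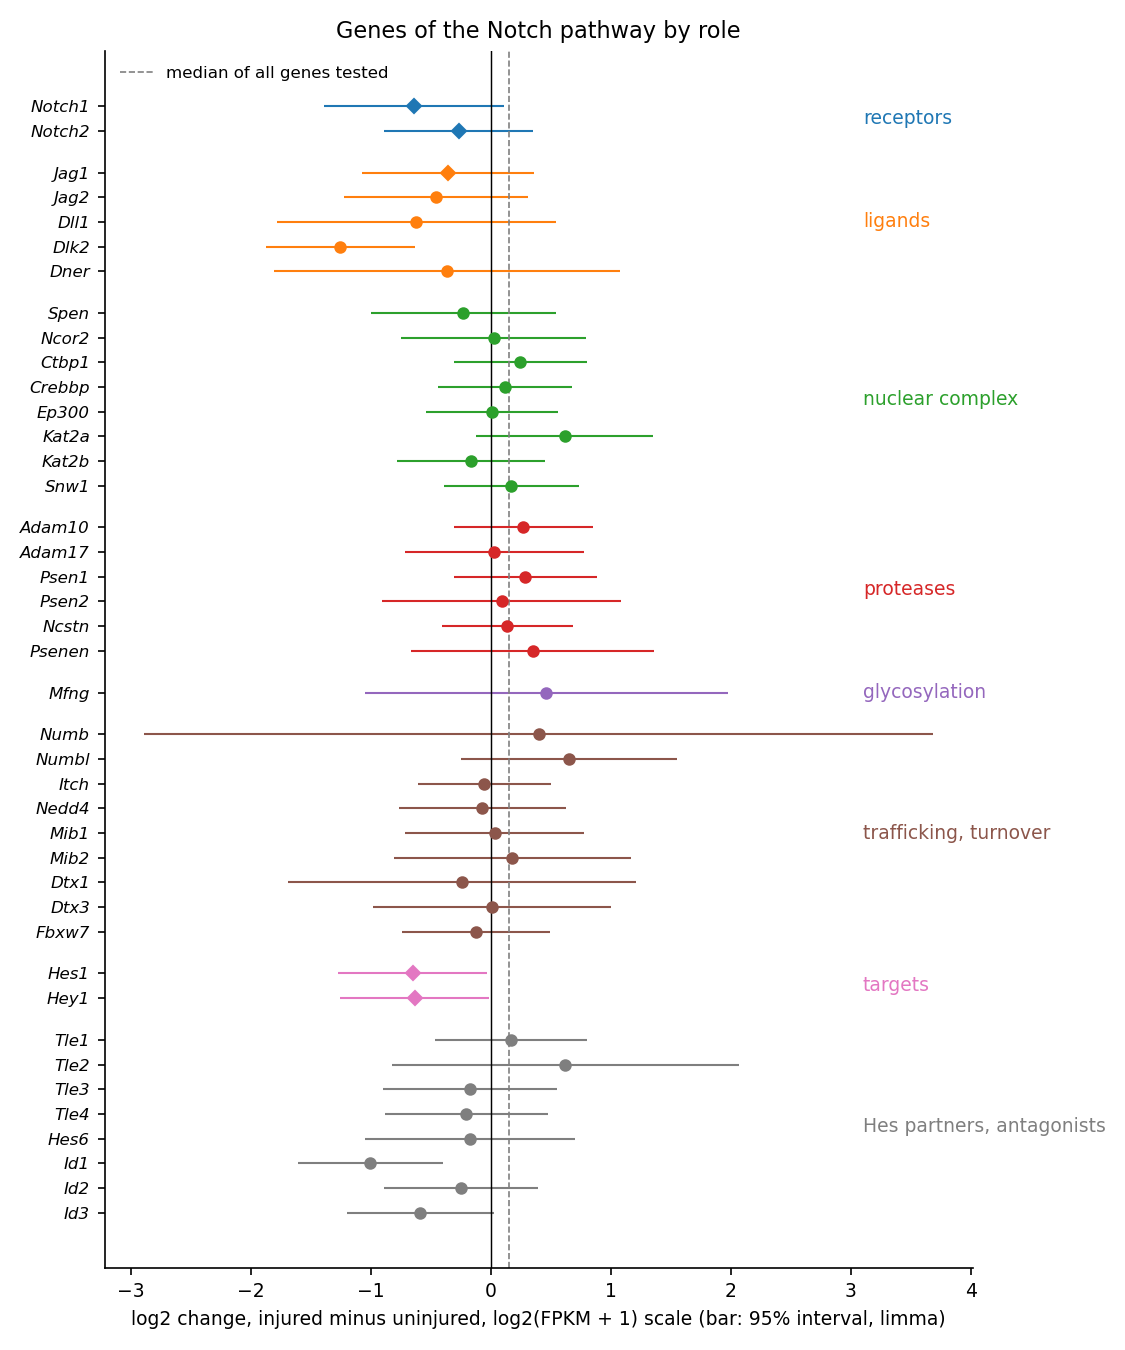
Log2 change of FPKM + 1, injured less uninjured, with its 95% interval from limma, for the tested genes of the Notch lists and of the Hes partners and antagonists, grouped by role; diamonds are the 5 members and the dashed line is the median of all genes tested. Receptors, ligands and targets all lie below 0, proteases all lie above it (3 of 6, Adam17, Ncstn and Psen2, are negative under other scalings), and the intervals of Dlk2, Hes1, Hey1 and Id1 do not reach 0.

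Among the ligand genes all 5 with an entry had a negative change, where 37.1% of all genes tested did. All 5 were also negative under the 3 other scalings. Their median of -0.46 was between -0.69 and -0.19 over the 17 alternative settings, some of which could not move it. Dlk2, a membrane protein related to the Delta ligands, had 7.52, 12.6 and 9.39 FPKM in injured replicates 1 to 3, against 19.9, 24.7 and 29.5 FPKM in uninjured replicates 1 to 3. The groups were well apart, with an injured mean at 39.9% of the uninjured one and a log2 change of -1.25 (SE 0.279, limma adjusted p = 0.173). Dlk2 passed without injured replicate 2 (log2 change -1.43, limma adjusted p = 0.0339), where 357 genes passed in all, and with library quality weights (limma adjusted p = 0.0306), where 132 did. Over the 17 settings its adjusted p lay between 0.0212 and 0.648. Jag2, the second Jagged ligand, was the more abundant of the Jagged pair in every library, at 11.9, 21.3 and 25.2 FPKM in injured and 21.8, 21.4 and 37.3 FPKM in uninjured replicates 1 to 3, with overlapping groups (log2 change -0.46, limma adjusted p = 0.624). Dll1, a Delta ligand, was at 7.68, 3.66 and 12.3 FPKM in injured and 8.05, 24.0 and 7.64 FPKM in uninjured replicates 1 to 3, so that its lower mean rested on uninjured replicate 2.

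Genes of the machinery between ligand and target lay near 0, and their direction depended on scaling. The 6 genes that cut the receptor all had a positive change, but Adam17 and Ncstn were negative under all 3 other scalings and Psen2 under 2 of them. Their median was 0.20, and it was 0.03 to 0.07 under those scalings. Adam10, which makes the outer cut, averaged 9.42 ± 1.69 FPKM in injured and 7.60 ± 0.955 FPKM in uninjured libraries (SD, n = 3 each), and Ncstn, a subunit of the gamma-secretase complex that makes the inner cut, averaged 31.1 ± 1.26 and 28.3 ± 3.06 FPKM in the same order. Of 8 nuclear cofactors 6 had a positive and 2 a negative change, with a median of 0.07 that was -0.11 to -0.08 under the other scalings. The acetyltransferases Ep300 and Crebbp, coactivators of the Notch complex, averaged 17.3 ± 2.77 and 21.1 ± 1.56 FPKM in injured and 17.1 ± 1.73 and 19.5 ± 3.18 FPKM in uninjured libraries (SD, n = 3 each). Rbpj and the Mastermind genes were not analysed here.

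Of 9 genes of receptor trafficking and turnover, Nedd4, a ubiquitin ligase, was the most abundant, at 147 ± 34.7 FPKM in injured and 152 ± 8.36 FPKM in uninjured libraries (SD, n = 3 each). Numbl, a relative of the Notch antagonist Numb, had 4.74, 3.61 and 3.14 FPKM in injured and 1.27, 2.36 and 2.70 FPKM in uninjured replicates 1 to 3, without overlap (log2 change 0.65, limma adjusted p = 0.564). Numb itself was at 11.8, 8.42 and 7.86 FPKM in injured and 16.9 and 24.9 FPKM in uninjured replicates 1 and 2, and it was listed at the lowest value, 0.001, in uninjured replicate 3. The median of the group was 0.01, and it was -0.17 to -0.12 under the other scalings.

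Downstream, Hes proteins work with Groucho corepressors and meet antagonists of the Id family, which bind basic helix-loop-helix factors without binding DNA. Id1, also a target of BMP signalling, was at 21.6, 28.8 and 33.8 FPKM in injured and 61.3, 50.9 and 57.6 FPKM in uninjured replicates 1 to 3, without overlap (log2 change -1.004, limma adjusted p = 0.240). Id3 was at 8.80, 13.4 and 15.0 FPKM in injured and 16.2, 19.8 and 20.4 FPKM in uninjured replicates 1 to 3, also without overlap (log2 change -0.59, limma adjusted p = 0.464). Id2 was at 19.4, 28.5 and 34.8 FPKM in injured and 36.1, 28.1 and 32.4 FPKM in uninjured replicates 1 to 3. Its groups overlapped (log2 change -0.25, limma adjusted p = 0.762). Of the 8 partners and antagonists with an entry, 2 were lower without overlap, where 6.75% of all genes tested were. Tle1 and Tle3, genes of the Groucho family, averaged 13.9 ± 4.30 and 11.2 ± 4.78 FPKM in injured and 11.8 ± 0.184 and 12.0 ± 0.931 FPKM in uninjured libraries (SD, n = 3 each), with overlapping groups. Hes6, a Hes relative that opposes Hes1, was at 4.84, 12.9 and 5.20 FPKM in injured and 5.26, 10.5 and 9.06 FPKM in uninjured replicates 1 to 3.

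Neurod1, a factor of neuronal precursors and one of the proneural genes downstream of Hes repressors, was at 5.30, 9.71 and 2.87 FPKM in injured and 1.30, 2.41 and 2.30 FPKM in uninjured replicates 1 to 3, without overlap (log2 change 1.11, limma adjusted p = 0.399). Injured replicate 2, where Hes1 was lowest, was the highest library for Neurod1. That library also held the most Gap43, a gene of immature neurons, at 113 FPKM against 2.44 and 2.76 FPKM in injured replicates 1 and 3. Gap43 was at 5.06, 13.1 and 12.0 FPKM in uninjured replicates 1 to 3, above injured replicates 1 and 3.

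Among 5760 other genes with a single symbol and a mean of at least 5 FPKM, those whose log2 values followed each member most closely over the 6 libraries were as follows, by Pearson correlation. Hes1 was followed by Arhgap25 (0.993), Bace2 (0.992) and Plunc (0.990), and Hey1 by Car12 (0.990), Slc6a6 (0.986) and Prrc1 (0.986). Notch1 was followed by Pygb (0.986), Rreb1 (0.979) and Tob2 (0.978), Notch2 by Prkci (0.996), Utrn (0.992) and Ctdspl (0.992), and Jag1 by Hmgcs1 (0.981), Serinc5 (0.976) and Vezf1 (0.974). Plunc, which encodes a secreted protein of nasal glands and airway epithelium, was at 2217, 1182 and 2290 FPKM in injured and 4245, 4978 and 3023 FPKM in uninjured replicates 1 to 3, the same order of libraries within the uninjured group as Hes1. The points are the same 6 libraries for all genes and fall into the groups of the study, so these values describe the libraries and carry no test.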

How the data were processed

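RNA of TdTomato-sorted cells was made into Nextera XT libraries, per the labels' protocols. The submitters' processing notes name FastQC, TopHat, Cuffdiff and mm9, with no versions or order; the sources used here give neither the annotation nor any filter on genes. The authors' deposited values were read as FPKM because Cuffdiff reports that unit and uses the same column heading for genes, although the table itself writes no unit. Entries that join several symbols (131) were left out of the test. For 549 genes some library shows 0.001, the table's minimum. Depth is unknown: when low genes were compared between libraries, 2.96% of ratios or fewer shared a step within 1%, so no whole reads were recovered and no counting intervals were computed.

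The 7856 entries with a single symbol and a mean of at least 1 FPKM were fitted with limma 3.58.1 (R 4.3.3) on log2(FPKM + 1), injured against uninjured, 3 libraries each, with no covariate, trended and robust eBayes and Benjamini-Hochberg adjustment at 0.05 over all of them. P-values measure the spread between these pooled libraries. The script was tested on simulated data. Ratios were compared by exact permutation. Named were the 5 members, genes of the role lists, and for each member the 3 genes most correlated with it; Gap43 is from the neuron marker list. The members and the 20 lists (148 symbols, 84 with an entry of their own) were chosen with earlier results of these data known. RefSeq windows were matched by symbol for 3 of 5 members. Tables and plots were made in Python 3.11.15, the plots with matplotlib 3.10.9. Some genes of the lists are not reported here.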

Additional observations from a re-analysis of the deposited data

How the results depend on the processing

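The log2 change of each of the 5 members kept its sign under all 17 alternative settings, and none passed the threshold under any of them. The change itself could not move with the replicate block, with other filters on genes, or without trend and robust steps. Leaving out 1 library at a time, the change ranged between -0.76 and -0.53 for Hes1, -0.71 and -0.54 for Hey1, -1.01 and -0.39 for Notch1, -0.45 and -0.06 for Notch2, and -0.64 and -0.19 for Jag1. After the 3 other scalings the groups of Hes1 and Hey1 still did not overlap. The remaining settings could not have made them overlap, so they add nothing on this point. The number of genes past the threshold was 1 and ranged between 1 and 357 when 1 library was left out, the highest without injured replicate 2. It was 2 with a pseudocount of 0.1 and 4 with 0.5, 3 after upper-quartile scaling, 4 after quantile normalization, 6 without trend and robust steps, 132 with library quality weights, and 2 when genes with a value of 0.001 were left out. With the replicate number as a block it was 212, but the numbers do not pair the libraries (correlations of deviations of same-numbered libraries -0.09, 0.07 and -0.08); with this block Dlk2 had a limma adjusted p of 0.0212. The median of the 33 pathway genes, 0.01, was -0.15 after upper-quartile scaling, -0.17 after quantile normalization and -0.12 with Mir703 left out and libraries rescaled, and between -0.13 and 0.0758 when 1 library was left out.

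Among ratios, the sign of the log2 difference depended on single libraries for 6 of 14: between -0.10 and 0.15 for Hey1 over Hes1, -0.13 and 0.42 for Hes1 over Notch1, -0.39 and 0.0695 for Notch1 over Trp63, -0.00766 and 0.37 for Jag1 over Trp63, -0.13 and 0.0353 for Hes1 over Trp63 and -0.13 and 0.0374 for Hey1 over Trp63. The Hes1 over Notch1 difference was -0.0127 with a pseudocount of 1. The cause was not tested. A minimum mean of 5 FPKM left no value for the glycosylation and proneural lists. With unknown depth, counting error in low genes such as Jag1 cannot be given.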
